A study of Rattus norvegicus with 6 samples.

Results

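The annexins are a family of calcium-dependent membrane-binding proteins, and 9 of their genes (Anxa1, Anxa2, Anxa3, Anxa4, Anxa5, Anxa6, Anxa7, Anxa8 and Anxa11) were followed here among 19780 gene symbols. They were chosen by symbol, each held 1 row of the count sheet, and all 9 passed the filter on low counts, Anxa8 only through its AP libraries. The samples were whole pancreas of wild type male Sprague-Dawley rats, 8 weeks old, an outbred strain, with 3 libraries from rats given L-arginine by intraperitoneal injection to induce acute pancreatitis (AP) and 3 from saline controls. For the AP rats the sample labels state 5 mg/kg and 36 h, the series' design text states 2 injections of 2.5 g/kg and 48 h, and the sources used here do not settle between them. Poly(A) RNA was sequenced in bulk with 150 bp reads. Since the labels do not state that the libraries come from separate animals, a p-value here speaks of the spread among libraries, which may be technical.

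An annexin consists of a conserved core of repeats, which binds negatively charged phospholipids when calcium rises, and an N-terminal tail that differs between members and binds partners such as S100 proteins. Annexins take part in exocytosis, endosome traffic, links between membrane and actin, and the closing of torn plasma membrane. Anxa1 is in addition a secreted, glucocorticoid-induced regulator of leukocytes, and Anxa2 with S100a10 is a surface cofactor of plasminogen activation. Excess L-arginine injures the acinar cells, the enzyme-secreting cells of the exocrine pancreas, and is a widely used rodent model of AP.

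Libraries held 14453584 to 18961353 counts. The acinar marker list took 37.6% to 38.9% of named-gene counts in controls and 0.674% to 5.01% in AP, with AP replicate 3 highest, and all 11 tested acinar markers were called lower. Of all tested genes, 30.5% were called lower under the scaling used below. With so different a make-up of the libraries, the size of every fold change depends on the scaling. Values below are CPM, counts per 1e+06 counts of the library, scaled by edgeR's trimmed mean of M-values (TMM), which places the middle of all tested genes near no change (median log2 fold change 0.07), whereas library totals alone place it at 2.25. In bulk tissue, fewer cells of a type and less RNA per cell cannot be told apart.

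Transcripts of 8 of the 9 annexins rose in AP and none fell in edgeR's quasi-likelihood test at an adjusted p of 0.05 (Benjamini-Hochberg), where 34.1% of 13240 tested genes were called higher and 30.5% lower. No annexin was lower at an unadjusted p under 0.05 in edgeR, DESeq2 or limma-voom. The median log2 fold change of the 9 was 1.48, beside 0.07 over all tested genes. The rises ran from 1.58-fold for Anxa6 to 16.4-fold for Anxa2, and the exception was Anxa11. The groups did not overlap, with AP higher, for the same 8 genes, a pattern seen in 37.8% of tested genes. Among these 8, Anxa8 passed the filter only through its AP libraries, so a lower call was not open to it. With library totals all 9 were called higher, where 88.2% of tested genes were and 4.32% were called lower. Without AP replicate 3 the same 8 annexins were called, and log2 fold changes ran from 0.13 to 4.05.

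**Figure D1:**
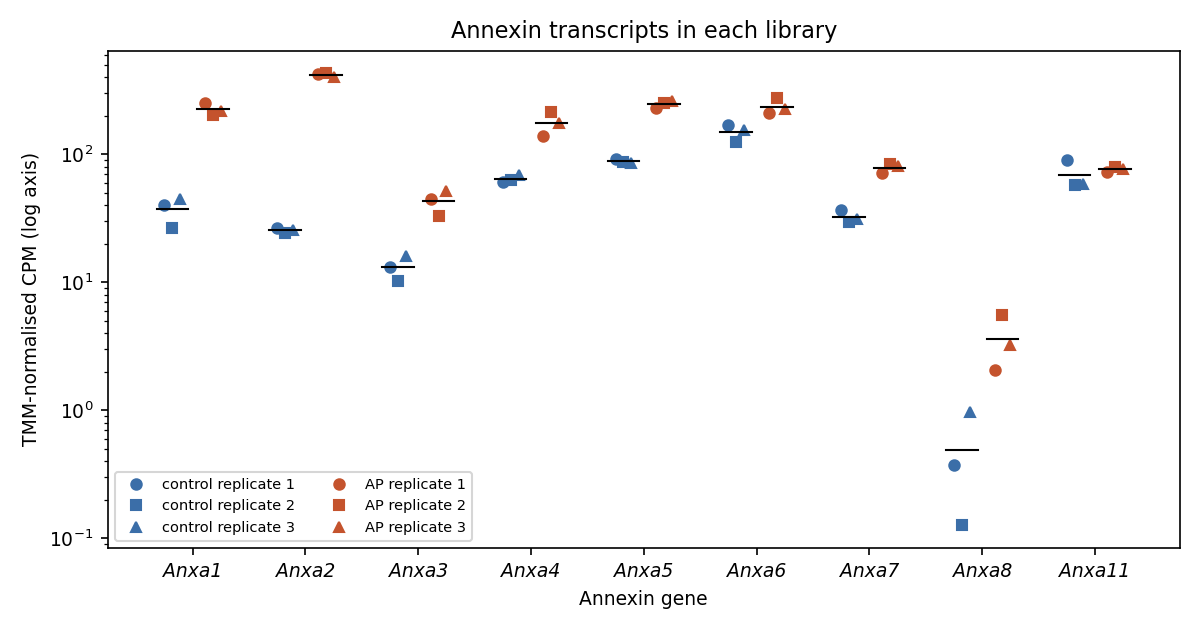
TMM-normalised CPM (log axis) of each annexin gene in the 3 control and the 3 AP libraries, one point per library, with a black line at each group mean. AP libraries lie above all controls for every gene but Anxa11, where control replicate 1, at 90.1, lies above the 3 AP libraries.

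Anxa2, which links membranes to actin and in complex with S100a10 gathers plasminogen and its activator at the cell surface, had the largest fold change. It stood at 26.6, 24.3 and 25.6 normalised CPM in control replicates 1 to 3 and at 421, 428 and 403 in AP replicates 1 to 3. Both groups were tight, with a coefficient of variation of 4.54% in controls and 3.10% in AP, and lay far apart. The log2 fold change was 4.04 ± 0.136 (SE, n = 3 per group, edgeR adjusted p = 6.84e-07), and 4.29% of tested genes had a larger one. Leaving out any 1 library kept it between 4.01 and 4.07.

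Anxa1, once called lipocortin 1, is carried in large amounts by neutrophils and monocytes and limits their recruitment through formyl peptide receptors. Its normalised CPM was 39.9, 26.7 and 44.8 in controls and 252, 203 and 216 in AP. Control replicate 2 was the lowest library and AP replicate 1 the highest, and the groups were well separated. The rise was 6.04-fold (log2 fold change 2.59 ± 0.204, edgeR adjusted p = 1.23e-05), which 9.97% of tested genes exceeded.

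Anxa8, an epithelial annexin with anticoagulant activity in vitro, had few reads. It was counted 3, 1 and 6 times in controls and 84, 221 and 109 times in AP. AP replicate 2 held the most and control replicate 2 the least, and every AP library was above every control. These counts are not yet scaled: with library totals the log2 fold change was 5.10. With TMM the fitted rise was 7.75-fold, with a 95% interval of 2.78 to 21.6 that overlaps the 13.2 to 20.4 of Anxa2 (log2 fold change 2.95 ± 0.646, edgeR adjusted p = 0.00384). Its size rests on few control reads, and the log2 fold change was 3.82 without control replicate 3.

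Anxa3, Anxa4 and Anxa5 rose by similar folds. Anxa3, a calcium-dependent aggregator of granules that is abundant in neutrophils, went from 13.2, 10.2 and 16.1 to 44.7, 32.7 and 51.3 normalised CPM (3.27-fold, log2 fold change 1.71 ± 0.219, edgeR adjusted p = 0.000191). Anxa4, found mainly in secretory and duct-type epithelia, went from 60.3, 62.4 and 69.3 to 138, 215 and 176 (2.75-fold, 1.46 ± 0.173, adjusted p = 0.000122). Its AP libraries spread more than its controls, with a coefficient of variation of 21.9% against 7.30%, and AP replicate 2 was the highest. Anxa5, which forms lattices on exposed phosphatidylserine and is the standard probe for dying cells, went from 91.0, 87.3 and 86.0 to 230, 249.8 and 260.2 (2.80-fold, 1.48 ± 0.117, adjusted p = 1.25e-05). Its libraries were close together in both groups, with a coefficient of variation of 2.95% in controls and 6.31% in AP. The 95% intervals of these 3 folds, 2.31 to 4.63, 2.09 to 3.63 and 2.32 to 3.37, overlap.

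The smallest fold changes were those of Anxa7, Anxa6 and Anxa11. Anxa7, also called synexin and first described as a factor that fuses chromaffin granules, stood at 37.0, 29.6 and 31.2 normalised CPM in controls and 71.7, 83.1 and 81.3 in AP (2.42-fold, log2 fold change 1.27 ± 0.128, edgeR adjusted p = 4.65e-05). Anxa6, whose core is duplicated and which acts in endosome and cholesterol traffic, stood at 170, 124 and 155 in controls and at 210, 274 and 224 in AP. The gap between the highest control and the lowest AP library was narrow, and the change was 1.58-fold with a 95% interval of 1.21 to 2.05 (0.66 ± 0.165, adjusted p = 0.00774). Anxa11, whose long tail tethers RNA granules to lysosomes, stood at 90.1, 57.4 and 59.0 in controls and at 72.5, 78.9 and 77.0 in AP. The groups overlapped, since control replicate 1 was above every AP library. The ratio was 1.11 with a 95% interval of 0.834 to 1.47 (0.15 ± 0.177, adjusted p = 0.497). Without control replicate 1 Anxa11 was called higher (log2 fold change 0.39, edgeR adjusted p = 0.0219), and so it was when scaled by library totals (2.32, adjusted p = 2.8e-06), where the median of all tested genes was 2.25.

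**Figure D2:**
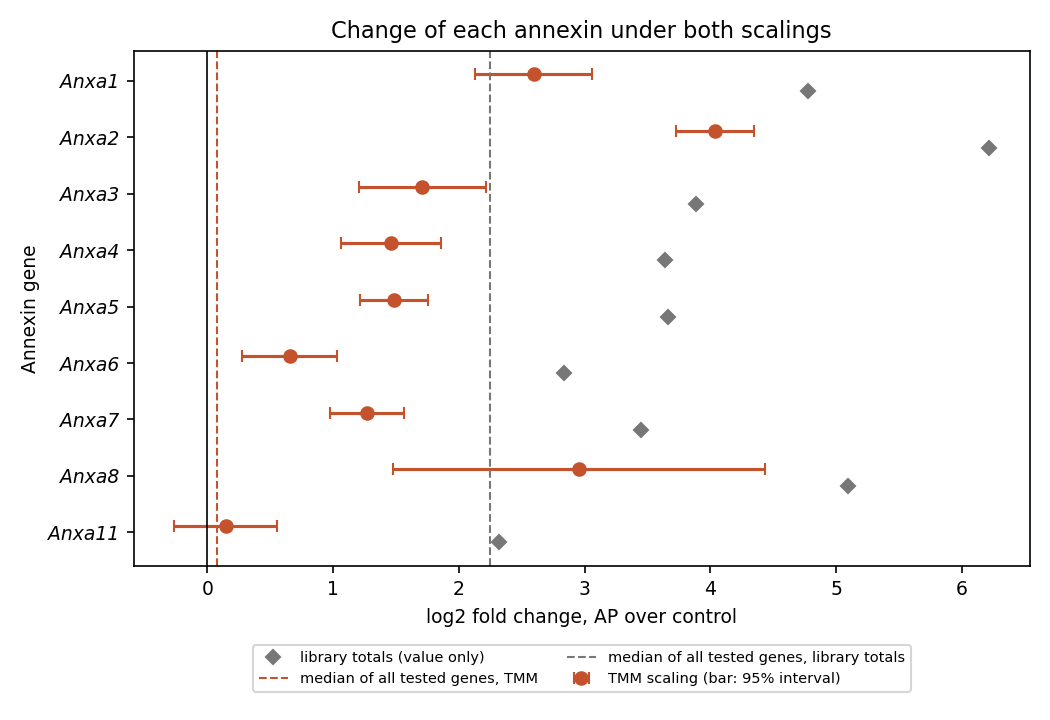
Log2 fold change of each annexin gene, AP over control, with TMM scaling (circles, bars for the 95% interval) and with library totals (diamonds), and dashed lines at the median of all 13240 tested genes under each scaling. The order of the members is the same under both, from Anxa11 (0.15 and 2.32) to Anxa2 (4.04 and 6.22), and the interval of Anxa11 alone crosses 0.

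The 9 genes together held 0.0247%, 0.0201% and 0.0227% of named-gene counts in controls and 0.322%, 0.338% and 0.298% in AP, a ratio of group means of 14.2. With the acinar markers taken out of the denominator the ratio was 8.93. A share of the library is a value scaled by library totals, where the median log2 fold change of all tested genes was 2.25. With TMM the summed normalised CPM of the 9 genes went from between 422 and 528 in controls to between 1441 and 1570 in AP. By contrast, a share of the family's own counts does not depend on the scaling between libraries. Within the family, Anxa2 supplied 5.03%, 5.74% and 5.24% of the counts in controls and 29.2%, 27.3% and 27.0% in AP. Anxa1 went from 7.55%, 6.31% and 9.20% to 17.5%, 12.9% and 14.5%. The share of Anxa6 went from 32.1%, 29.5% and 31.7% to 14.5%, 17.4% and 15.0%, and that of Anxa11 from 17.1%, 13.6% and 12.1% to 5.03%, 5.03% and 5.16%. The share of Anxa7 was lower in every AP library as well (mean 6.80% ± 0.351 in controls and 5.24% ± 0.240 in AP, SD, n = 3 each). The 2 groups did not overlap for these 5 genes (exact permutation p = 0.1, two-sided, the smallest that 3 against 3 allows), and overlapped for Anxa3, Anxa4, Anxa5 and Anxa8 (exact p of 0.2 to 0.9). Shares add up to the whole, so a gain by Anxa2 lowers those of other members, and the 5 are not separate results. A lower share is no fall of the transcript: with TMM Anxa6 and Anxa7 rose and Anxa11 was not called. Counts were not divided by transcript length, so a share does not rank the members by transcript number.

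**Figure D3:**
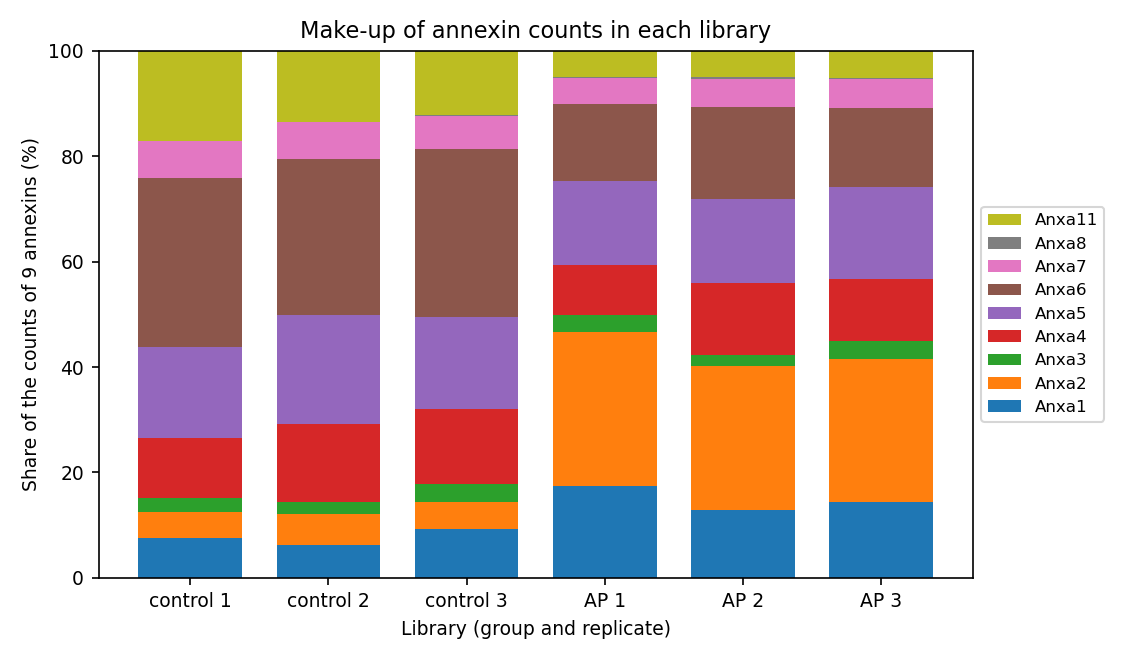
Share of the summed counts of the 9 annexin genes held by each gene, in percent, for the 3 control and the 3 AP libraries. The band of Anxa2 widens from 5.03% to 5.74% in controls to 27.0% to 29.2% in AP, while the bands of Anxa6 and Anxa11 narrow.

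Ratios between members within a library restate the same unequal change from the same counts. Each control library held 0.157, 0.195 and 0.165 Anxa2 counts per Anxa6 count and each AP library 2.01, 1.57 and 1.80, a 10.4-fold difference. Against Anxa11 the shift of Anxa2 was 14.5-fold, and against Anxa1 2.67-fold. The groups did not overlap for 7 of the 8 ratios of Anxa2 to another member (exact permutation p = 0.1 each, the smallest possible), and overlapped for the ratio to Anxa8 (exact p = 0.4). All 8 ratios share Anxa2, the member with the largest fold change, so their direction was given and they are no separate support.

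The stretch upstream of the RefSeq start is shown for Anxa2 and Anxa11, with the highest and the lowest log2 fold change of the 9, and for Anxa1, which like Anxa2 gained share. RefSeq windows on build GRCr8 were found for 8 of the 9 genes (not Anxa6), whereas the submitters' processing notes name mRatBN7.2, so these coordinates belong to GRCr8 only. Each sequence is the 250 bases before the start, 5′ to 3′ on the gene's strand, with motif matches in capitals. Anxa1 lies at chr1:227303733-227303982 on the minus strand, Anxa2 at chr8:78986002-78986251 on the plus strand and Anxa11 at chr16:1419484-1419733 on the plus strand.
Anxa1: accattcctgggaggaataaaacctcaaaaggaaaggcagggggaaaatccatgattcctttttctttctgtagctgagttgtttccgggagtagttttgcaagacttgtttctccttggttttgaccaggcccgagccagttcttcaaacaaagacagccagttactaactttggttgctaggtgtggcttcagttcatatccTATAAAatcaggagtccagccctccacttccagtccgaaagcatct
Anxa2: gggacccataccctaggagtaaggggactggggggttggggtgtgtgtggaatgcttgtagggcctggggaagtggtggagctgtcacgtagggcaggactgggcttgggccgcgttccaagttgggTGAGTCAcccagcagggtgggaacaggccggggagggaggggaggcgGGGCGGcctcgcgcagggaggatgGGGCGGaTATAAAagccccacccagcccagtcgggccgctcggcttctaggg
Anxa11: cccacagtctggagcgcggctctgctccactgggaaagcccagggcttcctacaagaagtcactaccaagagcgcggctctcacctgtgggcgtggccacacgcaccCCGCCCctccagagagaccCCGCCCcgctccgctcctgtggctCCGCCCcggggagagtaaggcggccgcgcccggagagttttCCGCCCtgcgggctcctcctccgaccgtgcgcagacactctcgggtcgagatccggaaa
Both strands were searched for the letters TATAAA of the core promoter element, for TGANTCA, which AP-1 binds, for GGGCGG, known from Sp1, and for CCAAT, which nuclear factor Y binds. No matches overlapped in these 3 windows. TATAAA was found in Anxa1 and Anxa2 and in no other annexin window, and in 12.9% of 33469 RefSeq windows of the same length. In Anxa1 its first base lies 46 bases and in Anxa2 45 bases before the start. Anxa2 held TGAGTCA 123 bases before the start, and TGANTCA occurred in 6.34% of all windows. GGGCGG, present in 30.5% of all windows, occurred in 5 of the 8 annexin windows (Anxa2, Anxa3, Anxa4, Anxa5 and Anxa11), and 4 times, as CCGCCC, in Anxa11. CCAAT, present in 34.0% of all windows, occurred in Anxa4 and Anxa7. The Anxa8 window held none of these motifs, and the log2 fold change of Anxa8 (2.95) was above that of Anxa1 (2.59). A link between motifs and fold changes was not tested. The GC content was 45.2% in Anxa1, 67.2% in Anxa2 and 69.2% in Anxa11, around a median of 51.2% over all windows. A match is a run of letters and not a measured site.

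Of the other annexin genes, Anxa13, an intestinal annexin, rose 3.62-fold from 3.10, 4.30 and 2.57 to 12.0, 11.3 and 13.2 normalised CPM (log2 fold change 1.86 ± 0.231, edgeR adjusted p = 0.000162). Anxa10, a gastric annexin, stood at 14.2, 4.68 and 2.73 in controls and 2.69, 1.02 and 2.41 in AP (log2 fold change -1.83 ± 0.602, adjusted p = 0.026). That call ended without control replicate 1 (-0.87, adjusted p = 0.177) or AP replicate 2 (-1.51, 0.0598), and the sign turned with library totals (0.35, 0.587). Anxa9 had 3 to 9 counts in each library and did not pass the filter on low counts. Without that filter it was called lower in edgeR (-2.06 ± 0.737, adjusted p = 0.0386), as it was in DESeq2 (-2.14, adjusted p = 0.0277). Both calls rest on the scaling between libraries. As CPM of library totals Anxa9 averaged 0.317 in controls and 0.321 in AP, and the groups overlapped.

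S100 proteins dock in pairs on annexin tails. Of 6 genes tested for such partners, 4 rose and none fell (none at an unadjusted p under 0.05), with a median log2 fold change of 3.15. Over all tested genes 34.1% were called higher and 30.5% lower. S100a10, the partner of Anxa2, stood at 12.9, 14.7 and 21.4 normalised CPM in controls and 154, 164 and 171 in AP (10.1-fold, log2 fold change 3.33 ± 0.192, edgeR adjusted p = 2.65e-06). S100a11, the partner of Anxa1, stood at 17.1, 18.4 and 18.8 and at 195, 154 and 196 (10.0-fold, 3.32 ± 0.145, adjusted p = 9.92e-07). Neither pair kept a fixed ratio. Anxa2 counts per S100a10 count were 2.06, 1.66 and 1.20 in controls and 2.73, 2.61 and 2.36 in AP, while Anxa1 counts per S100a11 count were 2.33, 1.45 and 2.38 and then 1.29, 1.32 and 1.10. The groups did not overlap in either ratio (exact permutation p = 0.1 each, the smallest possible). S100a4, which binds Anxa2 as well, rose 44.9-fold (5.49 ± 0.256) and S100a6, a ligand of Anxa11, 7.85-fold (2.97 ± 0.262). S100a1 (0.28 ± 0.288, adjusted p = 0.414) and S100b (0.55 ± 0.676, adjusted p = 0.497) were not called, and S100b was at 1.55 without control replicate 3 (adjusted p = 0.0979). With 2, 7 and 15 counts in controls, S100b passed the filter on low counts only through its AP libraries, which left less room for a lower call.

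Genes of plasminogen activation, the system that Anxa2 serves at the cell surface, rose in 4 of 6 tested cases and fell in none (none at an unadjusted p under 0.05), with a median log2 fold change of 1.19. Over all tested genes 34.1% were called higher and 30.5% lower. Plat, the tissue activator that binds the Anxa2 complex, stood at 15.6, 14.2 and 15.3 normalised CPM in controls and 159, 192 and 171 in AP (11.6-fold, 3.53 ± 0.132, edgeR adjusted p = 6.84e-07). Its AP libraries were all far above its controls. Plaur, the urokinase receptor, rose 22.0-fold (4.46 ± 0.230) and Plau, urokinase, 3.47-fold. With 7, 6 and 7 counts in controls, Plaur passed the filter on low counts only through its AP libraries. So did Serpinf2, with 9, 10 and 4 counts in controls, which was not called (0.17 ± 0.431). This left less room for a lower call of either gene. The call of Serpine2 (0.59 ± 0.228, adjusted p = 0.0494) ended without any 1 library other than AP replicate 2 (adjusted p of 0.0559 to 0.173), in limma-voom (0.1), with DESeq2 size factors (0.0527), with upper quartile scaling (0.0546) and with a filter of 50 counts in 3 samples (0.0578). Plgrkt, a plasminogen receptor, was at 0.16 ± 0.267. Plg, plasminogen itself and a liver product, had at most 7 counts in a library and was not tested.

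Of 9 tested genes for other binding partners 6 rose and none fell (none at an unadjusted p under 0.05), with a median log2 fold change of 0.47. Over all tested genes 34.1% were called higher and 30.5% lower. Ahnak, the giant scaffold bound by the Anxa2 complex, stood at 139, 124 and 158 normalised CPM in controls and 731, 849 and 502.5 in AP (4.95-fold, 2.31 ± 0.225, edgeR adjusted p = 3.94e-05). Pla2g4a, the phospholipase whose activity Anxa1 limits, rose 17.9-fold (4.16 ± 0.415, and 4.93 without control replicate 1). With 31, 7 and 11 counts in controls, Pla2g4a needed its AP libraries to pass the filter on low counts. The size of its rise rests on few control reads. Src, a kinase of Anxa2, rose 5.54-fold. Sri, sorcin, which binds Anxa7, rose 2.44-fold, and Anxa7 itself 2.42-fold. Pdcd6, a calcium sensor that binds Anxa7 and Anxa11, changed little (0.35 ± 0.126, adjusted p = 0.0349), and its call ended in 5 of the 6 fits with 1 library left out (adjusted p of 0.0548 to 0.102) but not without control replicate 2, and ended with the replicate block (0.0732). The call of Rasa1, a Ras regulator bound by Anxa6 (0.47 ± 0.150), ended without control replicate 2, AP replicate 1 or AP replicate 2 (adjusted p of 0.0617 to 0.0813). Egfr, a kinase that phosphorylates Anxa1, stood at -0.15 ± 0.209 and was not called.

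**Figure D4:**
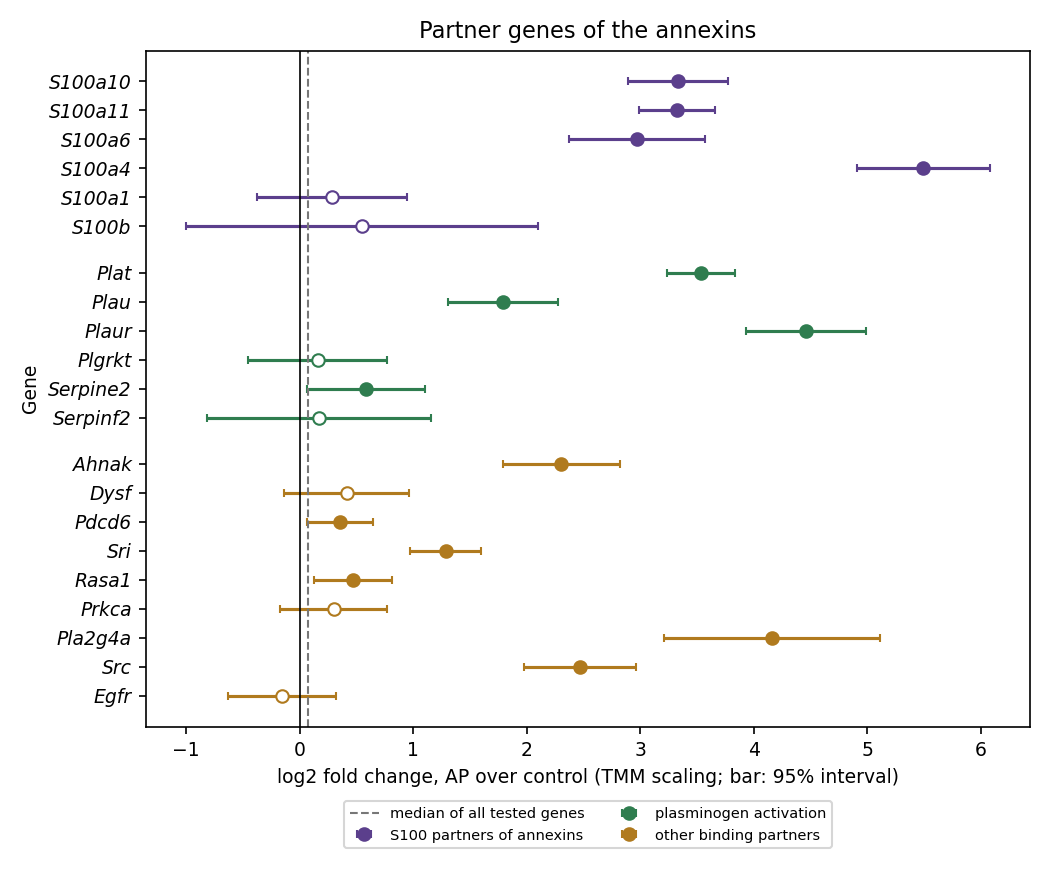
Log2 fold change, AP over control with TMM scaling, of tested S100 partners, plasminogen activation genes and other binding partners of the annexins, with bars for the 95% interval and a dashed line at the median of all tested genes. Filled circles passed an adjusted p of 0.05 and open circles did not, and S100a4 (5.49) lies farthest to the right.

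The formyl peptide receptors, through which Anxa1 acts on leukocytes, had almost no counts. Fpr1 had 0 counts in all controls and 32, 0 and 7 in AP, Fpr3 had 1 count each in AP replicates 1 and 2, and Fpr2 had 0 in all 6 libraries. A count of 0 allows up to 3 counts, or 0.160 to 0.225 CPM of the library total, by counting error alone. None of the 3 passed the filter on low counts. Whether their reads were lost in annotation or counting cannot be told from the count sheet, so their counts of 0 do not show absence of the transcripts.

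Among 15 tested genes of plasma membrane repair, the process in which annexins cap a torn membrane, 8 rose and 1 was called lower, with a median log2 fold change of 0.39 (34.1% and 30.5% of all tested genes were called higher and lower). Myof, myoferlin, rose 10.7-fold (3.42 ± 0.199, edgeR adjusted p = 2.73e-06), Capn2, a calpain, 4.16-fold (2.06 ± 0.167) and Ehd2, a caveolar ATPase, 2.56-fold. Of the genes of the later membrane-scission step, Chmp4b, a subunit of the scission polymer, rose 1.31-fold (0.39 ± 0.110, adjusted p = 0.0132). Tsg101 at -0.21 ± 0.105, Vps4b at 0.11 ± 0.101 and Pdcd6ip at -0.16 ± 0.112 were not called. Ahnak and Pdcd6, both described above, are also counted among the 8. Dysf, dysferlin, which binds Anxa1 and Anxa2, was at 0.42 ± 0.240 (adjusted p = 0.159). The single lower call, Syt7 (-1.02 ± 0.327), ended in 5 of the 6 fits with 1 library left out (adjusted p of 0.0508 to 0.0898) but not without control replicate 1, ended with the replicate block (0.0534), and the sign turned with library totals (1.16).

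Phosphatidylserine is the lipid that Anxa5 binds, and 11 genes of its exposure and sensing were tested, of which 6 rose and 4 fell, where 34.1% of all tested genes were called higher and 30.5% lower. With library totals 10 were called higher and none lower (none at an unadjusted p under 0.05), where 88.2% of all tested genes were called higher, so the falls are relative to other genes. The receptor tyrosine kinases of dead-cell uptake diverged, with Axl 4.11-fold (2.04 ± 0.142) and Mertk 2.61-fold (1.39 ± 0.199) higher, while Tyro3 was at -0.86 ± 0.235, or 1.32 with library totals. Tmem30a, the subunit shared by the flippases that return the lipid to the inner leaflet, was at -0.67 ± 0.109 (edgeR adjusted p = 0.00075, and 1.51 with library totals). Of the flippase genes, Atp11a was 2.33-fold (1.22 ± 0.129) and Atp8a1 1.71-fold (0.77 ± 0.162) higher. The scramblase gene Ano6 was at -0.56 ± 0.151 (1.62 with library totals). The bridging ligand Gas6 was at -1.37 ± 0.385, at -0.78 without control replicate 1 and at 0.82 with library totals, whereas Pros1 rose 2.21-fold.

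Profiles over the 6 libraries were compared by the root mean square distance of centred log2 CPM among 12815 named genes. Nearest to Anxa2 were Fxyd5 (distance 0.0565), Ticam2 (0.0942) and Gpr18 (0.099). Nearest to Anxa6, the member with the highest mean log2 CPM, were Ddx52 (0.0338), Pcdhga7 (0.0732) and Atg7 (0.0752), and nearest to Anxa11 were Papolg (0.0497), Ppid (0.0735) and Pwp1 (0.0755). With 2 groups these distances mostly reflect the size of the group difference.

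Markers of several cell types moved with the annexins, and their part in the annexin values was not tested. The counts below stand beside 34.1% of all tested genes called higher and 30.5% called lower with TMM. All 10 macrophage markers rose, and their summed normalised CPM went from between 190 and 240.1 in controls to between 5407 and 5475 in AP. All 5 tested of 8 neutrophil markers rose (2.61 to 4.04, then 62.6 to 146), as did 8 of 9 fibroblast and stellate markers (1026 to 1368, then 3839 to 8993), all 5 mesothelial markers (18.8 to 57.1, then 124 to 182) and all 6 tested of 7 lymphocyte markers (1.29 to 7.71, then 64.0 to 211), of which Cd79a and Ms4a1 were at 0 in controls. All tested lymphocyte markers, and every tested neutrophil marker but S100a9, passed the filter on low counts only through their AP libraries. The mesothelial markers Wt1 and Upk1b and the ductal marker Car2 missed its level in control replicate 2 and needed AP libraries to pass. The filter thus favoured higher calls among these genes. Of 9 ductal markers 4 rose and 2 were called lower. Their sum went from between 380.3 and 459 to between 843 and 1188, but without Spp1, left out after its values were seen, the other 8 went from between 303 and 359 to between 153 and 260.3. Endothelial markers changed little in sum (158 to 200.5, then 174 to 190.5), with 2 of 7 higher and 2 lower, and 7 of 8 islet markers were not called, with 1 lower. With library totals 8 of 9 ductal, all 7 endothelial and all 8 islet markers were called higher, as were 88.2% of all tested genes.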

How the data were processed

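The authors deposited raw counts of reads per gene, and per the submitters' processing notes worked with FastQC, STAR, featureCounts, DESeq2 and build mRatBN7.2. The sources used here give no versions, annotation, strand setting or rule for multimapping reads, so reads of Anxa2 and Anxa7 may be shared with or lost to their pseudogenes (8 and 4 RefSeq entries). Of 23096 rows, 3110 without a gene name (1.41% to 7.69% of counts) were left out, and rows that share a symbol were summed. Of 19780 symbols, 16799 matched RefSeq (GRCr8).

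The 3 AP and 3 control libraries were compared with edgeR 4.0.16 (R 4.3.3; glmQLFit and glmQLFTest, TMM, filterByExpr, no covariate), with adjusted p over 13240 genes. TMM factors averaged 0.47 in controls and 2.13 in AP, and a normalised CPM is therefore no share of reads. Standard errors were derived from each log2 fold change and its F statistic (absolute change divided by the root of F). The code was tested on simulated data, with equal numbers of genes raised and lowered from control means. That simulation did not copy the shift in library make-up seen here, so it does not test the scaling. No 2 libraries of a group were alike within sampling noise (chi-square of 39.5 to 148 per gene). Members, partner and marker lists were chosen with earlier results of these data known, and within lists the genes named are those needed for roles. One listed gene each of plasminogen activation and of phosphatidylserine exposure is not reported here and is left out of its list's counts. Nearest profiles were taken for the annexins with the highest mean log2 CPM and the highest and lowest log2 fold change. Alternatives were other scalings, DESeq2 1.42.0, limma-voom (limma 3.58.1), other filters, unnamed rows kept, a replicate block and each library left out.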

Additional observations from a re-analysis of the deposited data

How the results depend on the processing

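The 8 annexins called higher were called in all 15 alternative fits, and none was called lower in any. Anxa11 was called higher with library totals (2.32), and its log2 fold change ran from 0.0323 to 0.3932 with 1 library left out. Library totals also gave 11680 genes higher and 572 lower, 15 membrane repair genes higher and 0 lower, 10 phosphatidylserine genes higher and 0 lower, 0 of the other annexins lower, and Anxa10 at 0.35. With 1 library left out, 0 to 1 membrane repair genes and 0 to 1 of the other annexins were called lower. Same-numbered libraries did not deviate together (correlations of -0.029, 0.033 and -0.107), so the numbers were not taken to pair samples. With the replicate number as a block 4200 genes were higher and 3704 lower, 8 annexins were higher, Anxa2 was at 4.04 and Anxa11 at 0.18, and 0 membrane repair genes were lower. The share of Anxa3 in annexin counts, 0.136 percentage points higher in AP, was -0.0214 without control replicate 2 and -0.145 without AP replicate 3, with a range of -0.145 to 0.531. The summed normalised CPM of the ductal markers, 634.6 higher in AP, was -119 without Spp1, an alternative chosen after the data were seen. The cause of these shifts was not tested. Shares per protein length were not run, since no protein lengths were at hand. Depth limits Anxa8 and Anxa9.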
